A study of Drosophila melanogaster with 3 samples.

Results

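The Notch pathway genes of Drosophila melanogaster were examined for chromatin peaks of the protein CG18262 in whole embryos. They were 32 protein-coding genes, listed by name, out of 13945 protein-coding genes annotated on the chromosome arms. By role they comprised the receptor and its ligands (3 genes), processing and glycosylation factors (8), trafficking factors and ubiquitin ligases (9), nuclear factors (4) and targets within the Enhancer of split complex, E(spl) (8). Peaks came from chromatin immunoprecipitation followed by sequencing (ChIP-seq), which the labels class as transcription factor ChIP-seq. The samples formed 1 group of 3 biological replicates, each with 1 technical replicate. All were embryos of mixed sex, 0 to 16 hours old, of a transgenic line in which CG18262 carried green fluorescent protein (GFP) at its C-terminus, and an anti-GFP antibody was used. The promoter that drives the fusion is not given in the sources used here. Whole embryos mix all cell types of these ages, so a strong peak in few cells and a weak peak in many cannot be told apart.

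Notch is a receptor cleaved when a ligand on a neighbouring cell binds it. Its freed intracellular domain enters the nucleus, joins the DNA-binding protein Su(H) and the coactivator Mastermind, and turns on target genes such as the E(spl) repressors. In the fly embryo the pathway is best known for lateral inhibition, in which E(spl) repressors keep most cells of the neuroectoderm from becoming neuroblasts. Enzymes of the secretory pathway add sugars to Notch, proteases cut it, and endocytosis of ligand and receptor sets how strongly it signals.

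For each role, the sequence under the strongest promoter peak is shown, because these are the places where the tagged protein's signal was highest at a start site of that role. Each is the peak's summit with 50 bp on either side, from the RefSeq sequence of Release 6 (dm6), 5′ to 3′ on the plus strand. The N window is chrX:3134445-3134545, the aph-1 window chr2L:2765801-2765901, the numb window chr2L:9449636-9449736, the gro window chr3R:26042458-26042558 and the E(spl)m7-HLH window chr3R:26036593-26036693. Capitals mark matches to the E-box, CANNTG, the only sequence among those searched that occurred in these 5 windows.
N: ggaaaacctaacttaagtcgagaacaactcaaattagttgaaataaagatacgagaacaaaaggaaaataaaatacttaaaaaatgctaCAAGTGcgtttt
aph-1: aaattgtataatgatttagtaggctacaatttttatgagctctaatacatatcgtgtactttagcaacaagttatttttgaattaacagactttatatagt
numb: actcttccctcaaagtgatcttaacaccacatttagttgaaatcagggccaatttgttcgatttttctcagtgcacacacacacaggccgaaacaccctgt
gro: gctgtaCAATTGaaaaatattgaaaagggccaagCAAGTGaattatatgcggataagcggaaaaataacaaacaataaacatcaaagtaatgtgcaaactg
E(spl)m7-HLH: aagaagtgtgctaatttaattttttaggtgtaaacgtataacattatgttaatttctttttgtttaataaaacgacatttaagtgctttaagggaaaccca
GC content was 28.7% in the N window, 24.8% for aph-1, 43.6% for numb, 32.7% for gro and 25.7% for E(spl)m7-HLH. The N window held 1 E-box, CAAGTG at position 90 from its 5′ end. The gro window held 2, CAATTG at position 7 and CAAGTG at position 35. The windows of aph-1, numb and E(spl)m7-HLH had none of the searched sequences.

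A gene was called bound where a peak's summit lay within 500 bp of any of its annotated start sites, a call that says nothing of its expression. The main list was the authors' list of 8529 peaks thresholded by the irreproducible discovery rate (IDR), here the thresholded list. Its peaks were exactly the 8529 strongest of the 30000 in the pooled list, so it came from the same reads as the replicates. For each replicate the 8529 strongest peaks of its own 30000 were used. Strength is given as rank, where rank 1 has the highest signal value. That value is the authors', on a scale not stated, and was used only within a list. The files used give no read counts, so depth is unknown. Per the labels' file listings each replicate list used a control file, but the control's own reads were not examined here. No untagged line was compared. What an antibody recovers from any open promoter thus cannot be told apart from the fusion's signal.

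In the thresholded list 17 of the 32 Notch pathway genes were bound (53.1%), against 26.7% of all protein-coding genes. The count was 22, 19 and 19 in replicates 1, 2 and 3, or 20 ± 1.73 (SD, n = 3), against 26.7%, 27.9% and 26.7% of all genes in the same replicates. Each replicate thus had a larger share of these genes bound than of all genes. In the pooled list 27 were bound (84.4%), against 44.7% of all genes. With the 4000 strongest peaks alone 12 were bound (37.5%), against 14.6% of all genes. A window of 200 bp gave 11 members (34.4%), against 18.3% of all genes, and one of 1000 bp gave 21 (65.6%), against 30.6%. Of the 17 bound genes, 16 were also bound in every replicate. The exception was E(spl)mbeta-HLH, bound in replicates 1 and 2. The same share was not counted for all bound genes. The call in a replicate did not require the same summit. For lqf, Nedd4 and mam, 1 replicate had no matching summit within 100 bp, and the call there rested on another summit.

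**Figure D1:**
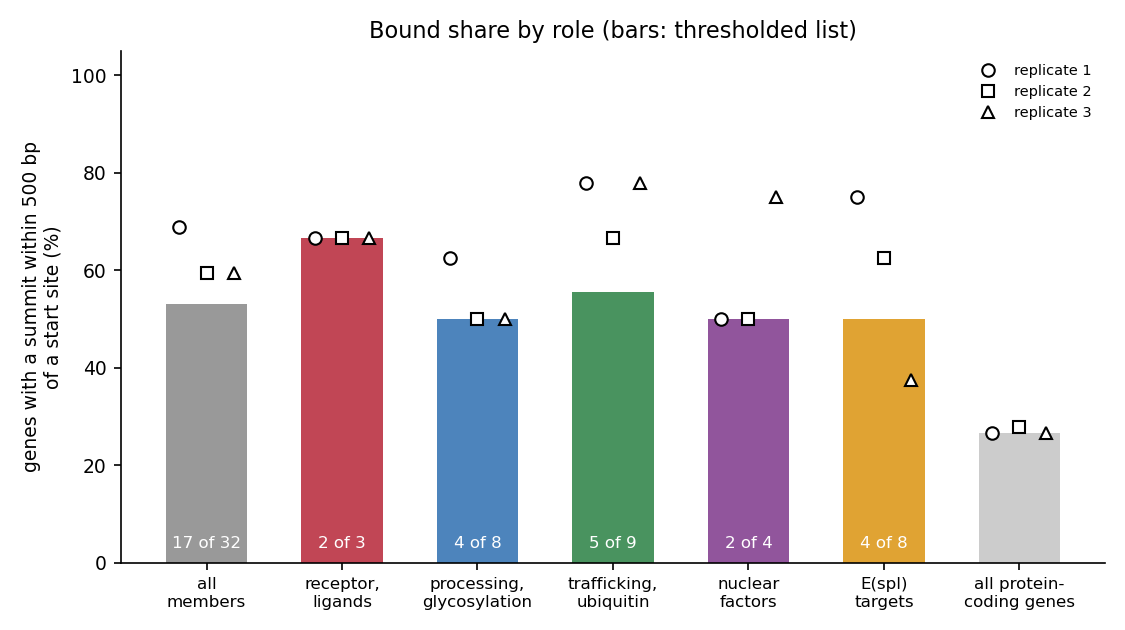
Share of genes with a summit within 500 bp of a start site (%), for all 32 members, for each role and for all protein-coding genes. Bars are the thresholded list, with the number bound printed inside, and open symbols are the 3 replicates. The bar of all members stands at 53.1% and that of all protein-coding genes at 26.7%, and the 5 roles lie between 4 of 8 and 2 of 3 genes.

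Among the receptor and ligands, N and Dl were bound and Ser was not. N, which encodes the Notch receptor, occupies bases 3134870 to 3172221 of X on the plus strand. Its promoter peak ranked 3806 in the thresholded list and 3426, 4022 and 4276 in replicates 1, 2 and 3, with the summit 375 bp upstream of its start site. It was of middling strength in each list. Dl, the ligand Delta, occupies bases 19302731 to 19326217 of 3R on the minus strand. Its peak ranked 5691, with replicate ranks of 3685, 6270 and 7798 and a summit 149 bp upstream. The Dl peak was weaker than that of N in all 4 lists. For Ser, which encodes the other ligand, Serrate, the nearest thresholded summit was 3496 bp upstream, and only the pooled list had a summit within 500 bp, at rank 12985. Ser was bound in no replicate.

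Of the processing and glycosylation factors, O-fut1, rumi, kuz and aph-1 were bound, and fng, Psn, nct and pen-2 were not. The gene aph-1 encodes a subunit of gamma-secretase, the protease that makes the last cut in Notch. Its peak ranked 571, with 574, 648 and 582 in replicates 1, 2 and 3, and its summit lay 382 bp upstream. It was the strongest promoter peak of this role in all 4 lists. A second, weaker summit of rank 1487 lay closer, 182 bp upstream. The peak also lay within 500 bp of the start site of Snx21, so it cannot be assigned to 1 of the genes. The other 3 subunits of gamma-secretase were not bound. Psn, the catalytic subunit, had its nearest thresholded summit 9514 bp away and was bound in replicate 1 only, at rank 7662. The nearest for nct was 19226 bp away, and its start had no peak in the pooled list or among the strongest of any replicate. At pen-2 the pooled list alone had one, at rank 9185.

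The gene rumi encodes the enzyme that adds O-glucose to Notch. Its peak ranked 1452, with replicate ranks of 1709, 1188 and 1589, and lay 97 bp upstream of its start, within 500 bp of those of CG7029 and Usp12-46. O-fut1 adds the O-fucose that Fringe later extends. Its peak ranked 3980, with replicate ranks of 3990, 2907 and 5254, and it shared the peak with CysRS-m. kuz encodes the metalloprotease that sheds the outer part of the receptor after ligand binding. Its peak ranked 4866, with 4285, 5022 and 6240 in the replicates, and no other start site lay within 500 bp of it. Among these enzymes rumi thus had the strongest peak in each list. For fng, the glycosyltransferase Fringe, a strong summit of rank 826 lay 698 bp upstream of a start site, outside the 500 bp window. The pooled list had a weak summit of rank 23098 at 48 bp downstream.

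Of the trafficking factors and ubiquitin ligases, neur, Nedd4, lqf, numb and bib were bound, and mib1, Su(dx), dx and spdo were not. The gene numb encodes an inhibitor of Notch that passes to 1 daughter of an asymmetric cell division. Its peak ranked 213, with 212, 216 and 235 in replicates 1, 2 and 3. Its summit lay at the same base in all 4 lists, 144 bp upstream of an internal start site, 12.2 kb into the gene from its outermost start. No thresholded summit lay within 500 bp of that outermost start. The gene bib, big brain, encodes a membrane channel-like protein named for the overgrown nervous system of its mutants. Its peak ranked 360, with replicate ranks of 335, 411 and 369. The gene neur encodes the ubiquitin ligase that drives endocytosis of Delta. Its peak ranked 480, with replicate ranks of 339, 628 and 553, and lay 236 bp upstream of an internal start. At the outermost start of neur a weaker summit of rank 5933 lay 190 bp upstream. All 3 genes stayed within the 1000 strongest peaks of every replicate.

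The remaining bound genes of this role had weaker peaks. lqf encodes epsin, an adaptor for endocytosis of ubiquitinated ligand. Its peak ranked 4856, and 4506 and 4290 in replicates 2 and 3, with no matching summit within 100 bp in replicate 1, where another summit near its start ranked 3948. Nedd4 encodes a ubiquitin ligase acting on Notch. Its peak ranked 5853 at an internal start, and 5062 and 5876 in replicates 2 and 3, again with no match in replicate 1, where a different summit ranked 7144. The unbound genes were close to the rule's limits in several cases. spdo encodes a membrane protein needed for Notch signalling after asymmetric division, and a summit of rank 8389 lay 525 bp upstream of it. dx, Deltex, encodes a ligase that binds the Notch intracellular domain, and a summit of rank 6406 lay 705 bp upstream. Su(dx), a further ligase for Notch, and mib1, a ligase for the ligands, had their nearest summits at 5472 and 1602 bp.

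Of the nuclear factors, gro and mam were bound, and Su(H) and H were not. gro encodes Groucho, the corepressor recruited by E(spl) proteins. Its peak ranked 540, with 929, 443 and 475 in replicates 1, 2 and 3, and lay 133 bp upstream of an internal start site, 0.8 kb into the gene. At the outermost start of gro a weaker peak ranked 4114. mam encodes Mastermind. Its peak ranked 3779, with the summit 412 bp upstream. A weaker summit, of rank 4244, lay 205 bp upstream of a start site. Summits matching the stronger peak ranked 6972 and 3854 in replicates 1 and 2. In replicate 3 no summit matched within 100 bp, and the strongest summit at any start site of mam ranked 4174, 3727 and 2424 in the 3 replicates. The nearest thresholded summit to Su(H), which encodes the DNA-binding factor of the pathway, was 17372 bp away. The gene had a weak peak in replicate 3, at rank 7980, but none in replicates 1 or 2 or in the pooled list. H, Hairless, the protein that turns Su(H) into a repressor, was 27240 bp from the nearest summit, the longest distance among the 32 genes. H had no peak at its start in the pooled list or among the 8529 strongest of any replicate.

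In the thresholded list the E(spl) targets held the strongest promoter peaks of the pathway, at 3 of their 8 genes. These genes encode basic helix-loop-helix (bHLH) repressors, apart from E(spl)malpha-BFM, a Bearded-family inhibitor of Neuralized. The peak of E(spl)m7-HLH ranked 66, with replicate ranks of 48, 85 and 80, and lay 395 bp upstream. That of E(spl)m3-HLH ranked 67, with replicate ranks of 90, 138 and 39, and lay 413 bp upstream. That of E(spl)mdelta-HLH ranked 178, with replicate ranks of 142, 234 and 202, and lay 325 bp upstream, within 500 bp of the start of CG43116 as well. In the thresholded list the peaks of these 3 genes ended before the gene's start site. In replicate 2 the numb peak, of rank 216, was stronger than that of E(spl)mdelta-HLH. The fourth bound gene, E(spl)mbeta-HLH, had a much weaker peak of rank 6730 only 38 bp upstream. Its replicate ranks were 4382, 7626 and 8958, the last of them below the 8529 peaks used.

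The other 4 E(spl) targets were not bound in the thresholded list, though each had a weaker summit within 500 bp in the pooled list. Their pooled ranks were 8831 for E(spl)malpha-BFM, 11303 for E(spl)mgamma-HLH, 11313 for E(spl)m8-HLH and 25220 for E(spl)m5-HLH. The first lay only just below the thresholded list. E(spl)malpha-BFM was bound in replicates 1 and 2, at ranks 6921 and 8087, and E(spl)m8-HLH in replicate 1, at rank 6488. E(spl)mgamma-HLH and E(spl)m5-HLH were bound in no replicate. Strong and weak promoter peaks thus occurred side by side in this family of adjacent genes.

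**Figure D2:**
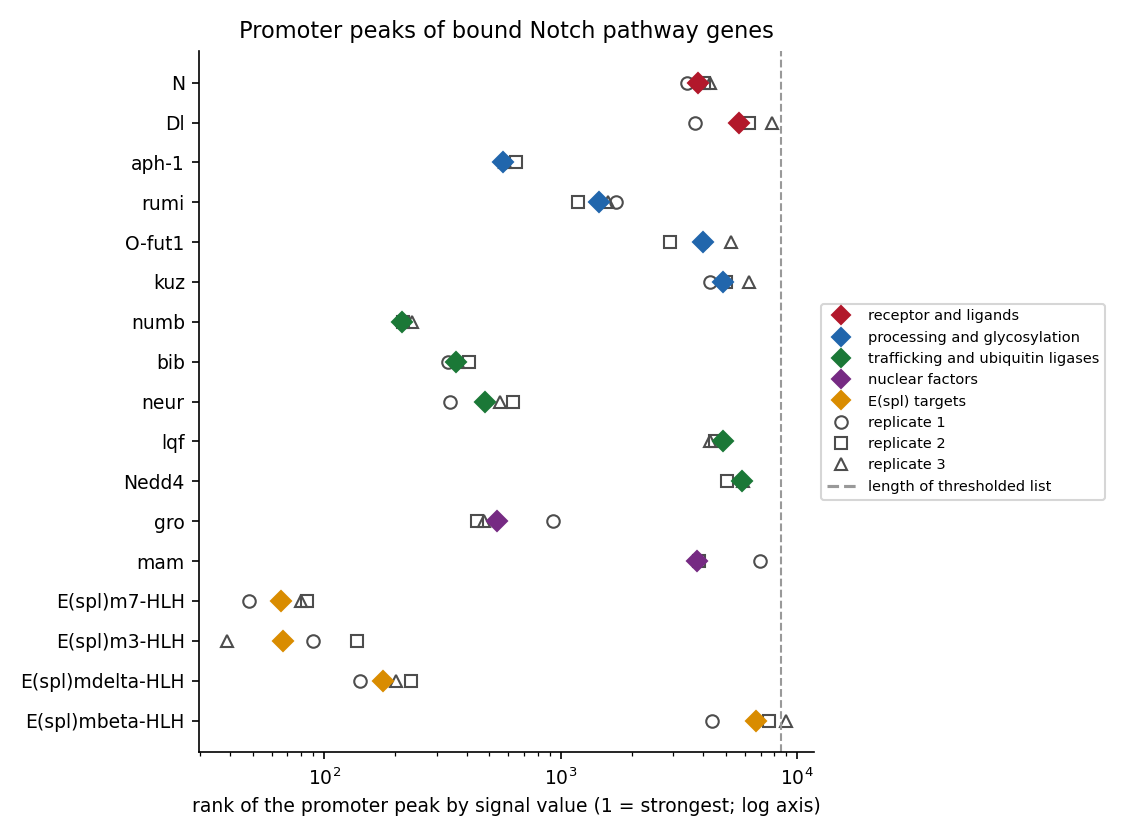
Rank of the promoter peak by signal value (log axis, 1 = strongest) for the 17 bound genes. Filled diamonds, coloured by role, are the thresholded list, and open symbols are the matching peak, with its summit within 100 bp, in each replicate. The dashed line is the length of the thresholded list, 8529. E(spl)m7-HLH, E(spl)m3-HLH and E(spl)mdelta-HLH have the diamonds furthest to the left, at ranks 66, 67 and 178.

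Every member was within 27240 bp of a thresholded summit. Of the 15 unbound genes, 8 were bound in at least 1 replicate, namely Psn, mib1, Su(dx), dx, spdo, Su(H), E(spl)malpha-BFM and E(spl)m8-HLH. Their replicate ranks ran from 5546 to 8087, in the weaker part of those lists. The other 7 were bound in no replicate, namely Ser, fng, nct, pen-2, H, E(spl)mgamma-HLH and E(spl)m5-HLH. The share bound in at least 1 replicate was not counted for all unbound protein-coding genes, so these counts are a description only. In the pooled list 5 members remained without a summit at a start site, namely Psn, nct, spdo, Su(H) and H. The promoter peaks furthest from their start sites were those of E(spl)m3-HLH at 413 bp, mam at 412 bp and E(spl)m7-HLH at 395 bp. Just outside the 500 bp window were spdo at 525 bp and fng at 698 bp.

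**Figure D3:**
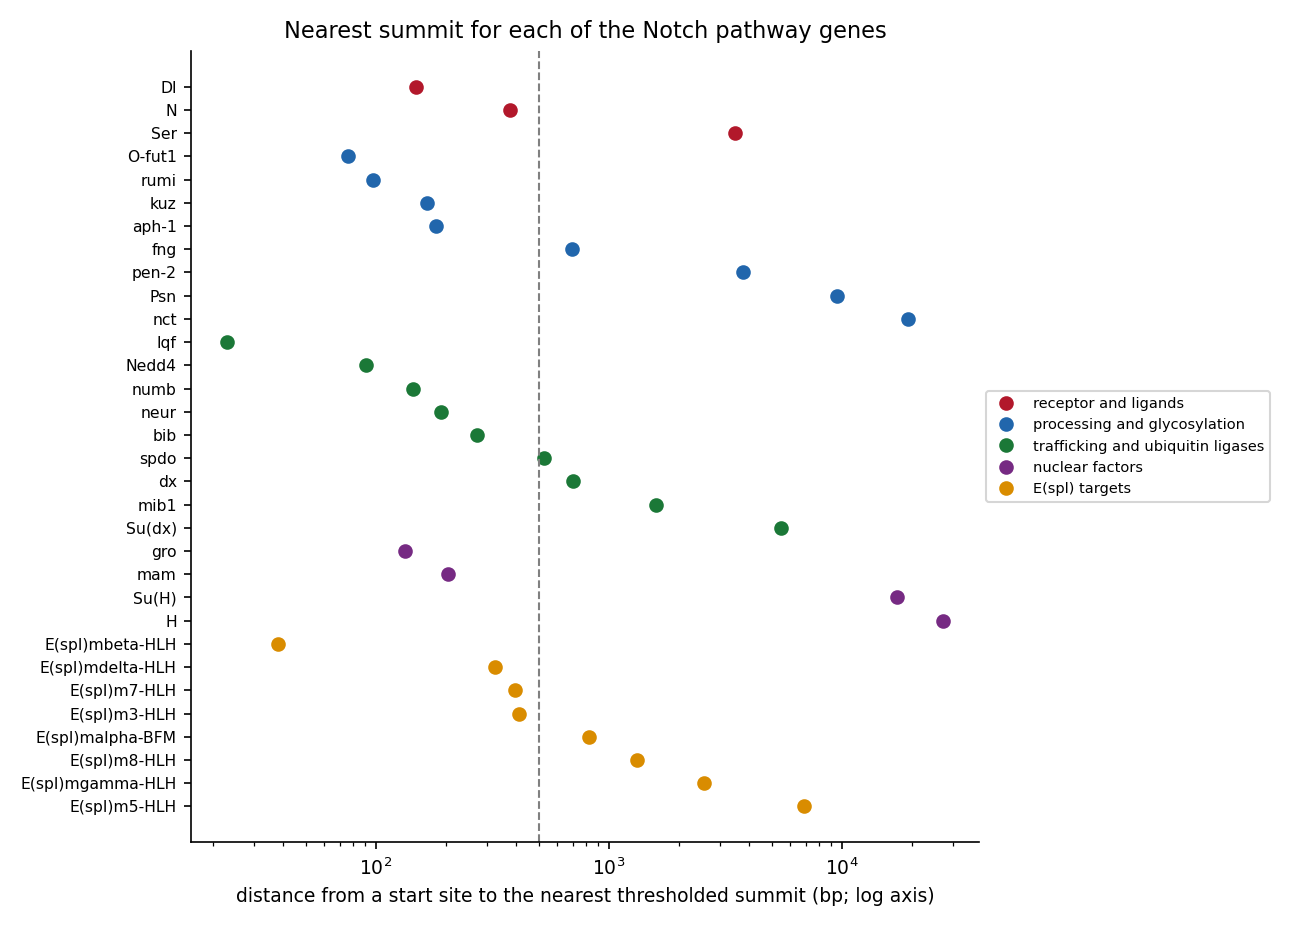
Distance in bp (log axis) from a start site to the nearest thresholded summit, of any rank, for each of the 32 genes, grouped and coloured by role. The dashed line is the 500 bp window, and the 17 bound genes lie to its left. H, nct and Su(H) lie furthest to the right, at 27240, 19226 and 17372 bp.

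The E(spl) complex, from the start of E(spl)mdelta-HLH to the end of gro, was rich in summits between its genes as well as at their starts. The interval lies on 3R from 25997621 to 26049911, spans 52.3 kb and holds 13 protein-coding genes. It had 11 thresholded summits, and 16, 13 and 11 in replicates 1, 2 and 3 (13.3 ± 2.5, SD, n = 3). The density was 2.1 thresholded summits per 10 kb, against 0.637 per 10 kb over all arms. Among the 2557 consecutive windows of this length on the arms, 133 (5.20%) held at least 11 summits, the median window held 2 and the richest 26. The pooled list had 45 summits here, or 8.61 per 10 kb, against 2.24 per 10 kb over all arms. The complex was thus denser in summits than the median window, though not the densest.

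Of the 11 thresholded summits inside the complex, 6 lay within 500 bp of a coding start and 5 did not. The strongest of the 5 ranked 179, with replicate ranks of 143, 288 and 206, and lay 507 bp upstream of E(spl)m2-BFM, a Bearded-family gene just missed by the 500 bp window. The next ranked 520, with replicate ranks of 491, 554 and 564, and lay 1790 bp upstream of E(spl)malpha-BFM. The remaining 3 ranked 1293, 2281 and 4057. All 5 of these intergenic summits had a counterpart among the 8529 strongest of each replicate. The thresholded list had no summit over the 15233 bp between the E(spl)m3-HLH and E(spl)m7-HLH peaks. E(spl)m4-BFM, E(spl)m5-HLH and E(spl)m6-BFM lie in that stretch, and weaker summits did occur there. Replicate 1 had 2 among its 8529 strongest peaks, of rank 5655 and 7531, replicate 2 had 1, of rank 8067, replicate 3 had none, and the pooled list had 13. Past the gro promoter no thresholded summit lay in the rest of that gene.

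**Figure D4:**
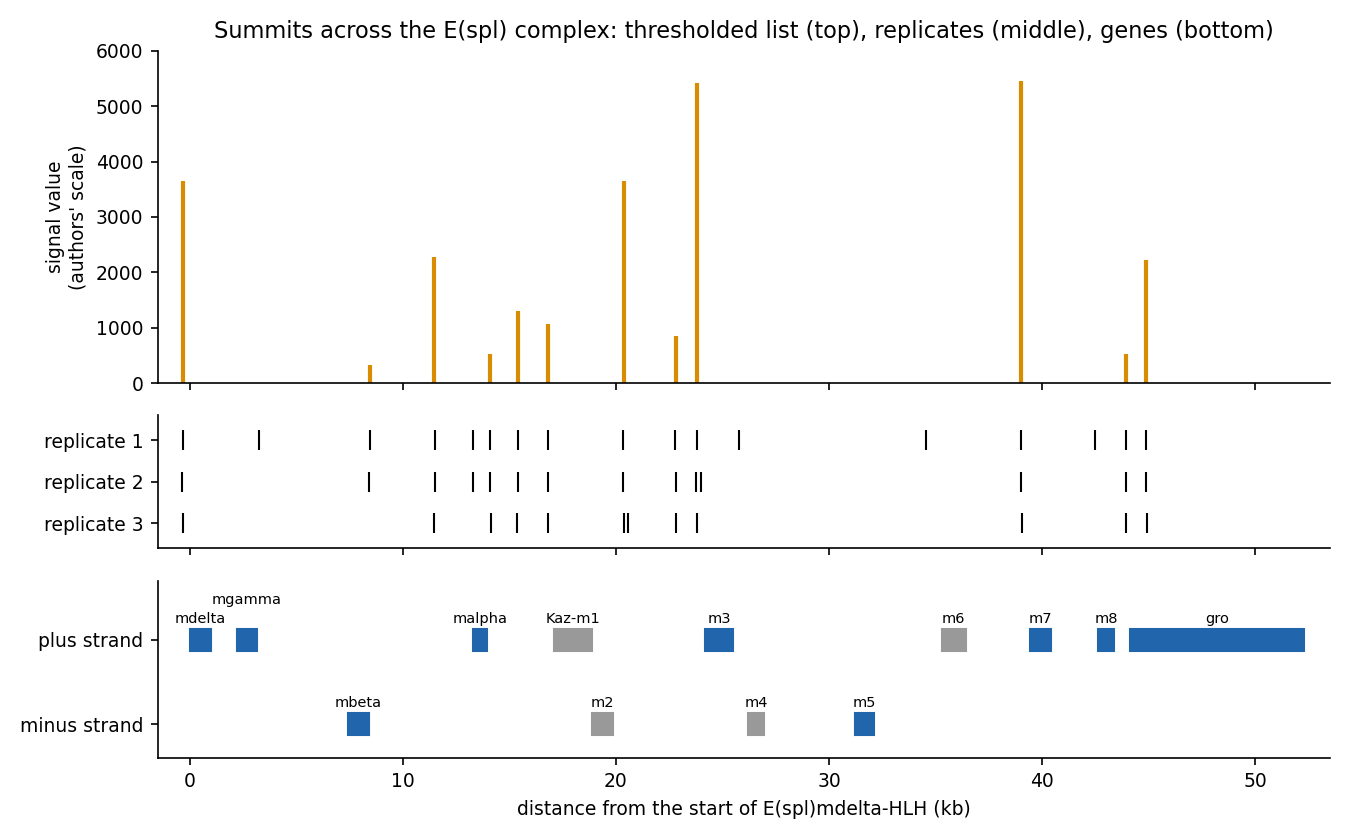
The E(spl) complex, by distance in kb from the start of E(spl)mdelta-HLH. The top shows thresholded summits with height as the authors' signal value, the middle shows summits among the 8529 strongest peaks of each replicate, and the bottom shows genes by strand, with members in blue and other genes in grey. The bar left of 0 is the promoter peak counted for E(spl)mdelta-HLH, which lies closer to the start of CG43116. It is not among the 11 summits inside. The tallest bars are upstream of m3 and m7, with 15233 bp between them free of thresholded summits.

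Inside gene bodies, from gene start to gene end, 12 of the 32 genes held at least 1 thresholded summit (37.5%), against 15.6% of all protein-coding genes. The count was 14, 11 and 11 in replicates 1, 2 and 3 (12 ± 1.73, SD, n = 3), against 16.7%, 16.2% and 15.5% of all genes. In the pooled list 18 members (56.2%) held one, against 29.3% of all genes. All 11 members of 10 kb or more held a thresholded summit, and gro was the only shorter gene that did. None of the 8 E(spl) targets did, in a size class where few genes do.

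The 12 genes held 38 summits. Of these, 8 lay within 500 bp of a start site, and the other 30 all lay in introns. For all protein-coding genes, 94.5% of the 3373 body summits outside promoters lay in introns. The gene mam held 13 of the 38, 11 of them outside promoters. Its strongest ranked 491, with replicate ranks of 412, 504 and 539, and lay 34.0 kb from its outermost start. Another, of rank 1082, with replicate ranks of 1236, 1004 and 972, lay at 33.3 kb. Both were stronger than the promoter peak of mam in the thresholded list. In N an intron summit 27.7 kb from the start ranked 352, with replicate ranks of 316, 345 and 388. It too was stronger than the gene's own promoter peak, in each of the 4 lists.

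The unbound genes fng and Ser also held intron summits. fng had 4, the strongest of rank 1333 at 19.0 kb, with replicate ranks of 1392, 1439 and 1338. The fng summit of rank 6842 lay in the same peak as that of rank 1333, and each was counted. Ser had 1, of rank 7663, with replicate ranks of 9180, 9439 and 8339, so that it lay among the 8529 strongest in replicate 3 only. kuz had 4, ranked from 3279 to 6772, spread from 21.0 to 65.3 kb. neur held 4 summits in its body, but only 2 lay outside promoters, in introns. Of the others, 1 was its own internal promoter peak and 1 lay at the start of hyx, a gene that overlaps it. Intron summits thus occurred in bound and unbound members alike.

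Density over gene bodies was 0.935 thresholded summits per 10 kb for all 32 members, and 0.741 without mam. Each summit was counted, also where several lay in the same peak. For the 11 members over 10 kb it was 1.06 per 10 kb, against 0.554 per 10 kb for the 1977 protein-coding genes over 10 kb. Over the arms as a whole it was 0.637 per 10 kb. The highest density among members over 10 kb was that of neur, at 2.09 per 10 kb, and the lowest that of Dl, at 0.426 per 10 kb.

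**Figure D5:**
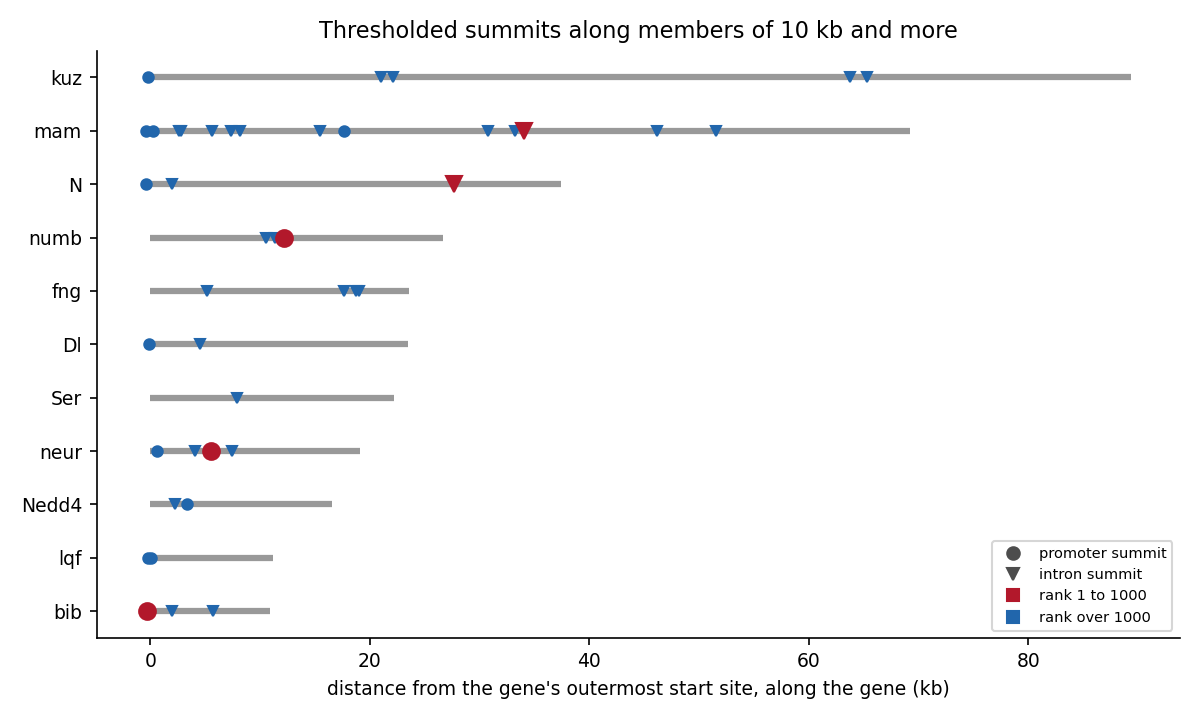
Thresholded summits inside the 11 members of 10 kb or more, with the promoter peak of those bound at the outermost start, drawn as grey bars from the outermost start site, in kb. Circles are summits within 500 bp of a start site of any gene, triangles are intron summits, and large red symbols have rank 1 to 1000. mam carries the most summits, and N and mam each have a red triangle, at 27.7 and 34.0 kb.

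Shares of all genes differed with length under both rules. By neighbours, shares were taken for the start-site rule only. The members differ in length and in neighbours. Under 2 kb, 7 of 12 members were bound, against 18.0% of all genes of that length. From 2 to 10 kb it was 1 of 9, which was gro, against 32.5%. From 10 to 20 kb all 4 members were bound, against 39.7%, and over 20 kb 5 of 7, against 39.3%. The members of 2 to 10 kb were thus the exception, with a smaller share bound than among all genes of that length. For gene bodies the counts were 0 of 12 under 2 kb, against 3.53% of all genes, and 1 of 9 from 2 to 10 kb, against 16.3%. They were 4 of 4 from 10 to 20 kb, against 46.3%, and 7 of 7 over 20 kb, against 60.9%. Among the 17 members with no start site of another gene within 1000 bp, 8 were bound, against 16.2% of such genes. Among the 15 with one, 9 were bound, against 40.8%. How far length and neighbours account for the members' share was not tested.

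The 17 promoter peaks were also described by side, strength and neighbours. All 17 summits lay upstream of the start site (100%), against 86.9% of the 3728 bound genes. Of the 17, 8 were among the 1000 strongest thresholded peaks (47.1%), against 16.9% of bound genes. These were aph-1, neur, numb, bib, gro, E(spl)mdelta-HLH, E(spl)m3-HLH and E(spl)m7-HLH. The top 100 held 2 (11.8%), E(spl)m7-HLH and E(spl)m3-HLH, against 2.07%. The median rank was 1452 for the 17 genes and 3537.5 for all bound genes. Both measures of strength depended on the window and the start sites used. With a 200 bp window 2 of 11 bound members, numb and gro, were among the 1000 strongest (18.2%), against 13.8% of bound genes, and the median rank was 4856, against 3996. With outermost start sites only, 5 of 16 were (31.2%), against 15.1%, with a median rank of 3893, against 3726. With a 1000 bp window 9 of 21 were (42.9%), against 17.4%, with a median rank of 3779, against 3393. In these 3 settings the members' median rank was thus weaker than that of all bound genes. The median distance to the start site was 198 bp for the 17 and 161.5 bp for all bound genes. For 12 of the 17 no other gene's start site lay within 500 bp of the summit (70.6%), against 44.1% of bound genes. The 5 that shared a peak were O-fut1, rumi, aph-1, mam, whose neighbour is RN-tre, and E(spl)mdelta-HLH.

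Known sequences were searched on both strands as exact letters. They were Su(H) sites (CGTGGGAA, TGTGGGAA, CGTGAGAA or TGTGAGAA), the GAGA site (GAGAG), the DNA replication-related element or DRE (TATCGATA), the core of motif 1 (GGTCACACT), the Zelda site (CAGGTAG) and the E-box (CANNTG). None of these letters contains another of the listed sequences. In windows of the summit and 50 bp on either side at the 17 promoter peaks, an E-box occurred in 4 (23.5%), against 32% of all 3223 promoter peaks. These 4 were N, Dl, rumi and gro. A GAGA site occurred in 1, at E(spl)m3-HLH (5.88%), against 8.94%, and the motif 1 core in 1, at Nedd4 (5.88%), against 1.12%. Su(H) sites, DRE and the Zelda site occurred in none of the 17, against 0.652%, 3.29% and 0.279% of all promoter peaks. A match is a description of these letters in these windows, and says nothing of the factor.

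The 300 bp promoter windows ran from 250 bp before to 50 bp after the outermost start. They were longer than the summit windows and covered all 32 members, so the shares of the 2 sets cannot be compared directly. A Su(H) site occurred in 3 of the 32 (9.38%), against 3.18% of all 13945 promoters. These were nct, E(spl)m5-HLH and E(spl)m8-HLH, none of them bound in the thresholded list, and E(spl)m8-HLH had 2 sites. In that list 17 of the 32 members were bound (53.1%), against 26.7% of all genes. The bound share of all promoters with a Su(H) site was not counted. A GAGA site occurred in 14 (43.8%), against 29.7% of all promoters, and in 6 of the 8 E(spl) targets (75.0%). An E-box occurred in 24 (75.0%), against 77.2%. DRE occurred in 3 (9.38%), against 9.36%, the motif 1 core in 2 (6.25%), against 6.05%, and the Zelda site in 1 (3.12%), against 1.64%. The summits of E(spl)m3-HLH, E(spl)m7-HLH and E(spl)mdelta-HLH lay further upstream than these windows reach. Median GC content at the summits was 27.7% for the 17 promoter peaks, with a range of 15.8% to 57.4%, and 30.7% for all promoter peaks. The highest was at E(spl)mbeta-HLH, the weakest of the 17 peaks.

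Of 39 further genes that act with Notch, belong to the same families or lie in the E(spl) complex, 12 were bound (30.8%). This was near the 26.7% of all protein-coding genes. Endocytic and endosomal factors had 5 of 12. The strongest was l(2)gd1, whose product acts in endosomal sorting of Notch, at rank 140, with replicate ranks of 195, 133 and 136. It shared the peak with Reps. Rab5, the small GTPase of early endosomes, followed at rank 618, with replicate ranks of 607, 574 and 672. AP-2alpha, of the clathrin adaptor, at rank 1739, Rab11, of recycling endosomes, at 3130 and Sec15, of the exocyst, at 3865 were the others. Sec15 shared its peak with rtet. Among other proteases and glycosyltransferases 2 of 5 were bound, Fur1, a furin protease, at rank 221, with replicate ranks of 480, 236 and 176, and shams, a xylosyltransferase acting on Notch, at rank 8274. Their peaks lay within 500 bp of the starts of Vps33B and CG11920 as well.

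Nuclear cofactors and other bHLH-Orange factors had 4 of 10 bound. These were ebi, at the peak it shares with AP-2alpha, nej, which encodes the acetyltransferase CBP, at rank 2347, and the Mediator kinase module genes skd at 2803 and Cdk8 at 5154. The skd peak was shared with Pdss2. The module's other genes, kto and CycC, were not bound. Of 8 other genes of the E(spl) complex or the Bearded family, 1 was bound. It was E(spl)m1, annotated as Kaz-m1, at rank 1718, with replicate ranks of 1503, 2029 and 1792. The achaete-scute complex genes ac, sc, l(1)sc and ase, known for promoting neural fate, had no summit within 500 bp of a start site in the thresholded or the pooled list.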

How the data were processed

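Peak lists for the 3 replicates, the pooled replicates and the IDR threshold were deposited on dm6. Per the labels' file listings, each replicate list used the replicate's reads and 1 control file common to all. Aligner, peak caller, versions and thresholds: not given in the sources used here. In each deposited list, a peak has a summit offset, a signal value on a scale not stated, and a −log10 q-value, which was not used. Every replicate and pooled list held 30000 peaks. Median widths were 444, 456 and 496 bp in replicates 1 to 3 and 404 bp in the thresholded list.

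Summits were set against start sites of protein-coding genes on the major arms, chromosome 4 included, from the Ensembl release 115 annotation of BDGP 6.54, with Python 3.11.15. RefSeq's genome of the same assembly gave the sequences. Coordinates are 1-based. A summit matched a replicate's where the 2 lay within 100 bp. A gene's promoter peak is the strongest peak that meets the rule. Intergenic, intron and other places were taken from the annotated exons. Genes that overlap or lie close can share a peak. The counting and matching steps were tested on simulated data. Plots used matplotlib 3.10.9.

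The labels give 1 group with no control group, so no groups were compared and no test was run. The labels call the replicates biological but do not say whether they were separate collections of embryos, so the SD may be partly technical. Members' counts are set beside the share of all protein-coding genes. The text names all 32 members, genes of 5 further lists, genes sharing a peak with any of these, and genes at E(spl) complex peaks. The members and lists were chosen with earlier results of these data known. Dl, nct, kul and E(spl)m1 were matched by gene identifier under the symbols Delta, Nct, Kul and Kaz-m1, and BobB and BobC, in the further lists, matched no gene. Alternatives changed the window, the start sites, the list, the overlap rule, the replicate match and the replicates required.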

Additional observations from a re-analysis of the deposited data

How the results depend on the processing

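The count of 17 bound Notch pathway genes kept within 1.5 times under 6 of 8 alternative settings. It moved to 11 with a 200 bp window and to 27 with the pooled list. It was 21 with a 1000 bp window, 16 with outermost start sites only, 13 where the peak had to overlap the start site, 12 with the 4000 strongest peaks, and 15 or 16 where summits had to match within 100 or 250 bp in all 3 replicates. The background moved as well, to 24.1%, 18.5%, 18.4% and 19.9% of all genes for outermost starts, overlap and matches at 100 and 250 bp.

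Of the receptor and ligands, 1 of 3 was bound with a 200 bp window, with overlap of the start site and with the 4000 strongest peaks, in place of 2. The shares of all genes in these settings were 18.3%, 18.5% and 14.6%. Of the 8 E(spl) targets, 1 was bound with the 200 bp window (12.5%) and 1 with overlap, in place of 4. That share was below the 18.3% of all genes at 200 bp. In the pooled list all 8 were bound, against 44.7% of all genes. The mean per replicate was 11.3 with the 4000 strongest peaks, in place of 20. The share of all genes bound in the 4000 strongest peaks of each replicate was not counted. The E(spl) complex held 45 pooled summits in place of 11.

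With each replicate left out in turn, 15 to 16 members were bound, 2 of the receptor and ligands, 4 processing factors and 3 to 4 E(spl) targets. The share of all genes bound fell too, to 21.3%, 19.5% and 20.1% without replicates 1, 2 and 3. The mean per replicate was 19 to 20.5, gene bodies with a summit numbered 10, and the complex held 10 to 11 summits. The share of all gene bodies with a summit was not counted in these settings. O-fut1, rumi, aph-1, neur and gro were bound in all 10 settings other than the pooled list. At outermost start sites alone, neur ranked 5933, Nedd4 6883 and gro 4114, and numb was not bound. The count among the 1000 strongest peaks and the median rank were recomputed under 3 settings chosen after seeing the data. The count of 8 became 2 with the 200 bp window, 9 with the 1000 bp window and 5 with outermost starts, and the median of 1452 became 4856, 3779 and 3893. The cause of these changes was not tested.

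No paired analysis was possible because the labels give 1 group. The lists give no read counts, so counting error could not be given.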
